A study of Mus musculus with 4 samples.

Results

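The homeostatic microglia genes are 9 genes that microglia, the resident macrophages of the brain parenchyma, hold at high levels in undisturbed tissue: Cx3cr1, P2ry12, P2ry13, Gpr34, Tmem119, Selplg, Siglech, Sall1 and Olfml3. They were taken as a fixed list of symbols, found once each among the 31053 genes of the count matrices, and their levels were read in microglia and in border macrophages gated on other genes. Brain vascular-associated cells of male wild-type (WT) C57BL/6 mice aged 12 to 14 weeks were profiled by 10x 3′ single-cell RNA sequencing, in 2 libraries after 14 days of chronic social defeat (CSD) and 2 after 14 days in the home cage condition (HC). A CSD mouse lived behind a perforated partition in the cage of an aggressive CD-1 mouse and met it daily for a short time, while the mate of an HC mouse, a CD-1 mouse per the study's methods, stayed behind a partition throughout. Each library pooled the cells of 4 mice and the animals cannot be told apart, so n = 2 libraries per condition. The p-values and standard errors between CSD and HC rest on the spread between pools, not between mice. The fit shared that spread over the genes tested, so it is not the spread of each gene alone. The cells had been enriched with magnetic microbeads against the endothelial protein CD31 after mechanical and enzymatic dissociation, so the microglia here came along with a vascular preparation. All 4 libraries share the genotype, the sex and the isolation.

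Microglia are told from the other macrophages of the brain by surface receptors and regulators that they keep as long as they receive the signals of healthy tissue. These genes are known to fall when microglia are activated. Many of them were described as lower in macrophages of the vessels, the meninges and the choroid plexus than in microglia, though not all are absent there. Of the receptors, Cx3cr1 binds fractalkine, a chemokine of neurons, P2ry12 and P2ry13 bind ADP released from injured cells, and Gpr34 is a receptor for lysophosphatidylserine. Tmem119 is a transmembrane protein used as a microglial marker, Selplg is the ligand of P-selectin, and Siglech is a sialic acid-binding lectin. Olfml3 encodes a secreted olfactomedin-like protein, and Sall1 a zinc finger transcription factor that maintains microglial identity.

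A barcode was counted as a cell with at least 500 UMIs (unique molecular identifiers, one per counted RNA molecule), at least 250 genes and at most 25% of UMIs from mitochondrial (mt-) genes, which left 14415 cells. Total UMIs per library ranged from 27297599 to 30361474 and the cells' median from 1408 to 2357 UMIs. Libraries shared 0 to 9 cell barcodes in a pair. Microglia were cells with C1qa, C1qb and Ctss, complement subunits and a lysosomal protease, at 1% of UMIs or more that were not border macrophages, and there were 4470 of them. Among these, 1993 were chemokine-high, with Ccl3 and Ccl4 at 0.3% of UMIs or more, and 2477 were other microglia. The other microglia comprised 1610 cells high in the immediate-early genes Fos, Fosb, Jun, Junb, Egr1 and Ier2 (at 1% of UMIs or more) and 867 cells low in both sets, called quiescent here for their gate only. Border macrophages, gated on Pf4, Mrc1, Ms4a7, Cbr2, Cd163 and F13a1, numbered 119, of which CSD 2 gave only 5. The microglia of CSD 2 also stood apart in depth, with a median of 4805 UMIs against 1864 to 2745 in the other 3 libraries. Levels are given on the CPM scale, the UMIs of a gene relative to all UMIs summed over the cells of a class in a library. They count molecules at the 3′ end and are not scaled by gene length, so values are compared between cells and libraries and not between genes.

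In GENCODE vM21 (GRCm38), the members lie on 6 chromosomes, and 4 of them form neighbouring pairs on the same strand. P2ry12 (chromosome 3, 59216272 to 59262871, minus strand) and P2ry13 (chromosome 3, 59207892 to 59210882, minus strand) are 5.39 kb apart, and both lie within Med12l on the opposite strand. Tmem119 (chromosome 5, 113793729 to 113800516, minus strand) and Selplg (chromosome 5, 113818536 to 113832644, minus strand) are 18.0 kb apart and overlap no other gene. Cx3cr1 is on chromosome 9 (119901616 to 120069879, minus strand) and Gpr34 on chromosome X (13632089 to 13640858, plus strand). Siglech is on chromosome 7 (55768178 to 55778925, plus strand), Sall1 on chromosome 8 (89027235 to 89044162, minus strand) and Olfml3 on chromosome 3 (103722222 to 103738001, minus strand). Whether the counting used the strand is not given in the sources used here. The exons of P2ry12 and Med12l share 9 bases, and Med12l itself stood at 22.2 to 48.8 CPM in other microglia. Gpr34 overlaps Cask on the opposite strand and shares no exon bases with it. Cask stood at 45.6 to 77.6 CPM in other microglia. Cx3cr1 shares 78 exon bases with the antisense gene Gm33858, which had 2 UMIs in all in other microglia.

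The RefSeq promoter table (GRCm38.p6) held windows for 6 of the 9 members, several of them for Sall1, and none for Tmem119, Gpr34 and Selplg. The 250 bases before each start were searched on both strands. The motifs were a PU.1 box (GAGGAA), an ETS-IRF composite, a MEF2-like pattern, an AP-1 site (TGANTCA) and a TATA box (TATAAA). The composite was GGAA, any 2 bases, GAAA, which can overlap a PU.1 box. The MEF2-like pattern was CTA, any 4 bases, TAG, which is looser than a MEF2 box. PU.1, IRF8 and MEF2 factors are regulators of the microglial programme, and AP-1 is the dimer of Fos and Jun proteins. Only 2 of these windows held a match, and they are shown because they belong to Cx3cr1 and P2ry13, the receptors described first below, with the matched letters in capitals. The window of Cx3cr1 (chr9:120068297-120068546, minus strand) held a match of the MEF2-like pattern 67 bases before the start, with a G among its middle 4 bases. That of P2ry13 (chr3:59210883-59211132, minus strand) held a PU.1 box 48 bases before its start.
Cx3cr1: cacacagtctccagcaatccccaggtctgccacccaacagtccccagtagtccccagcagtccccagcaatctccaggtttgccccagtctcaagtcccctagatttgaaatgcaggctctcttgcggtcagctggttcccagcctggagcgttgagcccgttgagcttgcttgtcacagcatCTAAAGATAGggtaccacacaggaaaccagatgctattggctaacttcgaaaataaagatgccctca
P2ry13: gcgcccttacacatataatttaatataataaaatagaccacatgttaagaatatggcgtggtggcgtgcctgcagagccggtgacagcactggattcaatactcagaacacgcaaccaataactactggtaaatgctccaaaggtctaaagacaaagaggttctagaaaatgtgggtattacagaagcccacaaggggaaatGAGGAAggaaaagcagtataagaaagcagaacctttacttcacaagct
The MEF2-like pattern stood in 3.20% of the 32851 promoter windows of the table, and a PU.1 box in 23.3% of them. No match of the other 3 motifs was found in the windows of the 6 members. Of all promoter windows, 2.30% held the ETS-IRF composite, 6.75% the AP-1 site and 12.4% the TATA box. The members' windows are too few to tell their shares from these. A match is a description of the letters, not evidence of binding.

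Every member was a gene of gated microglia in every library. Summed over the 9 genes, other microglia held 10038 CPM in CSD 1, 9595 in CSD 2, 11712 in HC 1 and 10498 in HC 2. Endothelial cells, the most frequent class with 5067 cells, held 103.7 ± 37.4 CPM of the same sum (SD, n = 4 libraries). Free RNA, read from barcodes of 100 UMIs or fewer, stood between both: Cx3cr1 was at 80.3 to 107 CPM in free RNA, at 13.9 to 28.6 CPM in endothelial cells and at 1896 to 2444 CPM in other microglia. All 9 members were above the free RNA of their own library in other microglia of each library, and none was in endothelial cells.

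At a common depth of 500 UMIs per cell, 1 other microglia cell held UMIs of 3.03 to 3.62 of the 9 members on average, and 61.1 to 77.0% of these cells held at least 3 of them. For Cx3cr1 alone, the share of other microglia with a UMI at that depth was 53.5% in CSD 1 (95% exact binomial interval 50 to 56.8%), 50% in CSD 2 (45.2 to 54.8%), 60.1% in HC 1 (55.6 to 64.5%) and 66.6% in HC 2 (63.0 to 70.1%). Without thinning these shares were 86.5, 75.3, 83.1 and 90.2%. In endothelial cells, which should lack Cx3cr1, the thinned share was 0.434 to 0.981%. The median depth was 1826 to 3960 UMIs in other microglia and 875 to 1551 UMIs in endothelial cells. These intervals cover counting error only.

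**Figure D1:**
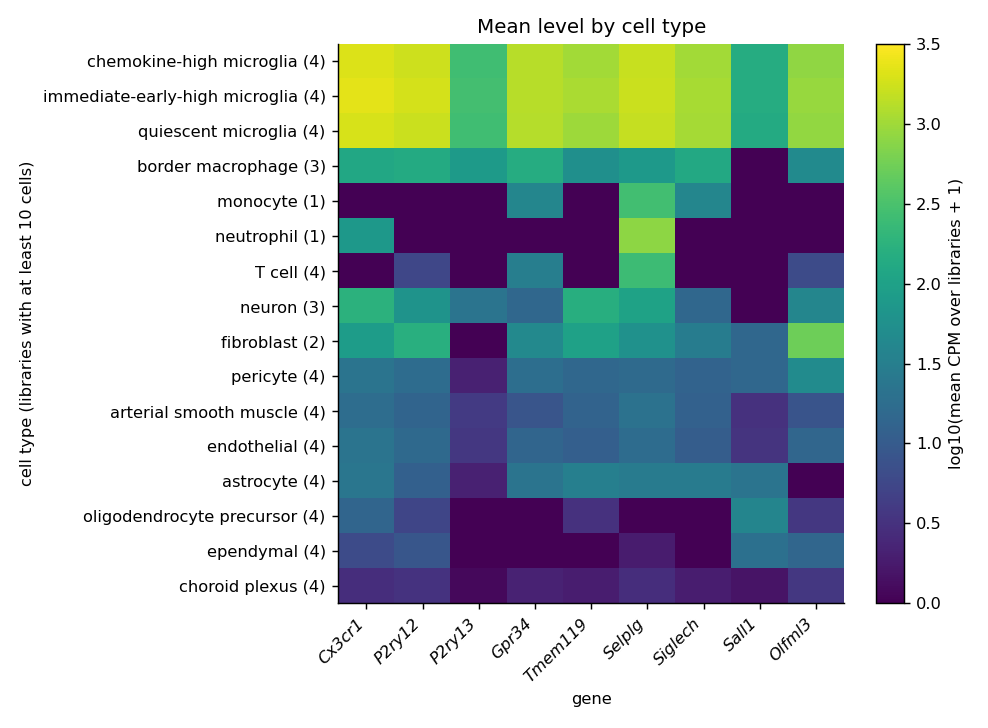
Heat map of the mean level of each gene (columns) in each gated cell type (rows, with the number of libraries that had at least 10 cells), as log10 of the mean CPM over libraries plus 1. The 3 microglia classes are bright for all 9 genes, while Selplg also stands out in T cells, neutrophils and monocytes and Olfml3 in fibroblasts.

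Selplg and Olfml3 stood above free RNA in some cells other than microglia, as did other members in small classes. Selplg, which leukocytes use to roll on activated endothelium, was at 229, 317, 172 and 293 CPM in the T cells of CSD 1, CSD 2, HC 1 and HC 2 (8 to 21 UMIs), against 72.5 to 99.8 CPM in free RNA and 16.3 ± 8.82 CPM in endothelial cells (SD, n = 4 libraries). The same T cells held 0 UMIs of Cx3cr1 and Tmem119. In the single library with at least 10 neutrophils, CSD 1, Selplg was at 809 CPM over 13 cells (11 UMIs). In the monocytes of CSD 1 it was at 277 CPM over 11 cells (7 UMIs). Olfml3 was at 606 and 473 CPM in the fibroblasts of CSD 1 and HC 2, the 2 libraries with at least 10 of them (28 cells in all), against 50.5 and 59.5 CPM in their free RNA. Cx3cr1 was at 144 and 27.8 CPM in these fibroblasts, and P2ry12 at 317 and 0 CPM. In the neurons of CSD 1, CSD 2 and HC 1, Cx3cr1 was at 330, 89.4 and 117 CPM (2 to 8 UMIs), against 80.3, 82.8 and 92.1 CPM in free RNA. Tmem119 was at 206, 44.7 and 214 CPM there, against 75.8, 54.5 and 68.0 CPM. In the oligodendrocyte precursors of CSD 1, CSD 2, HC 1 and HC 2, Sall1 was at 53.4, 25.9, 22.1 and 51.2 CPM (1 to 5 UMIs). Its free RNA was at 9.08, 18.5, 14.6 and 15.3 CPM. The part of mixed barcodes was not tested. These classes hold few cells, and the levels are given with no test. Over the 56 sums of a library and a cell type, the other genes closest to the mean of the members on a log2(CPM + 10) scale included Il1a (Pearson r = 0.960), Crybb1 (0.958), Havcr2 (0.957) and Gpr84 (0.954). The 56 points share 4 libraries and their depth, so the r is a description.

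CSD was first compared with HC in other microglia and chemokine-high microglia apart, the comparison the study was designed for. The 4 receptors Cx3cr1, P2ry12, P2ry13 and Gpr34 were lower in both CSD libraries than in both HC libraries in either class. So were 13.7% of all genes tested in other microglia and 12.1% in chemokine-high microglia, on CPM scaled by TMM, the normalization of the fit. No member passed the test in other microglia, in chemokine-high microglia or in all gated microglia (edgeR quasi-likelihood test, 2 against 2 libraries, 0 of 9 members). No gene at all passed it, 0% of the 8808, 8336 and 10037 genes tested. At an unadjusted p under 0.05 there were 175, 103 and 136 genes, with 1 member, P2ry13, in chemokine-high microglia and 0 in the other fits, and DESeq2 called 2, 0 and 1 genes and 0 members.

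Cx3cr1, the fractalkine receptor, was at 1896 CPM in CSD 1 and 1927 in CSD 2 against 2444 in HC 1 and 2422 in HC 2 in other microglia. In chemokine-high microglia it was at 1796, 1858, 2330 and 2310 CPM in the same order. The CSD libraries lay together below the HC libraries in both classes. Over the genes tested, the fit estimated a common coefficient of variation between pools of 21.4% in other and 23.0% in chemokine-high microglia. The fitted log2 fold changes were -0.30 ± 0.30 and -0.32 ± 0.32 (SE, adjusted p = 0.99965 and 0.99995 by edgeR), with 95% intervals of -0.98 to 0.37 and -1.07 to 0.42.

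P2ry13, another ADP receptor, was at 222 and 228 CPM in CSD against 356 and 311 CPM in HC in other microglia. It was at 205 and 204 against 369 and 279 CPM in chemokine-high microglia. This was the widest difference among the members, with no overlap. Its log2 fold changes were -0.52 ± 0.25 and -0.64 ± 0.27 (unadjusted p = 0.0678 and 0.0459, adjusted p = 0.99965 and 0.99995 by edgeR).

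P2ry12, the receptor by which processes extend towards ADP, was at 1758 and 1550 CPM in CSD against 2139 and 1887 CPM in HC in other microglia. Gpr34 was at 1197 and 1185 against 1555 and 1330 CPM. Their log2 fold changes were -0.24 ± 0.29 and -0.23 ± 0.28 in other microglia and -0.27 ± 0.31 and -0.31 ± 0.30 in chemokine-high microglia. On CPM scaled by TMM, the normalization of the fit, genes with both CSD libraries below both HC libraries made up 13.7% of the genes tested in other microglia, 12.1% in chemokine-high microglia and 12.2% in all gated microglia. The members so placed were 4, 5 and 4 of 9, Sall1 being the fifth in chemokine-high microglia. On the unscaled CPM printed here the shares of all genes were 16, 12.5 and 14.1% and the members 5, 5 and 6 of 9, with Olfml3 added in other microglia and Olfml3 and Sall1 in all gated microglia. This scale was added after seeing the data.

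The remaining members in other microglia overlapped between the groups on TMM-scaled CPM. Tmem119 was at 1260 and 1003 CPM in CSD and 1187 and 895 CPM in HC, highest in the libraries numbered 1 of either condition. Selplg was at 1670 and 1605 against 1795 and 1528 CPM. Siglech was nearly level over the libraries, at 1091 and 1095 against 1066 and 1088 CPM. On unscaled CPM only, both of its CSD libraries lay above both HC libraries. On that scale 8.89% of the 8808 genes tested were placed the same way. Sall1 was at 123 and 154 against 157 and 139 CPM, and Olfml3 at 822 and 849 against 1014 and 897 CPM. Their log2 fold changes ran from -0.15 (Olfml3) to 0.16 (Tmem119), with standard errors of 0.26 to 0.29, and the intervals of the 9 members together spanned -1.09 to 0.82. A 2-fold change in either direction thus lay outside the interval of every member other than P2ry13 in other microglia. In chemokine-high microglia the intervals of P2ry13, Cx3cr1 and Gpr34 included a 2-fold fall, reaching down to -1.26, -1.07 and -1.01.

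**Figure D2:**
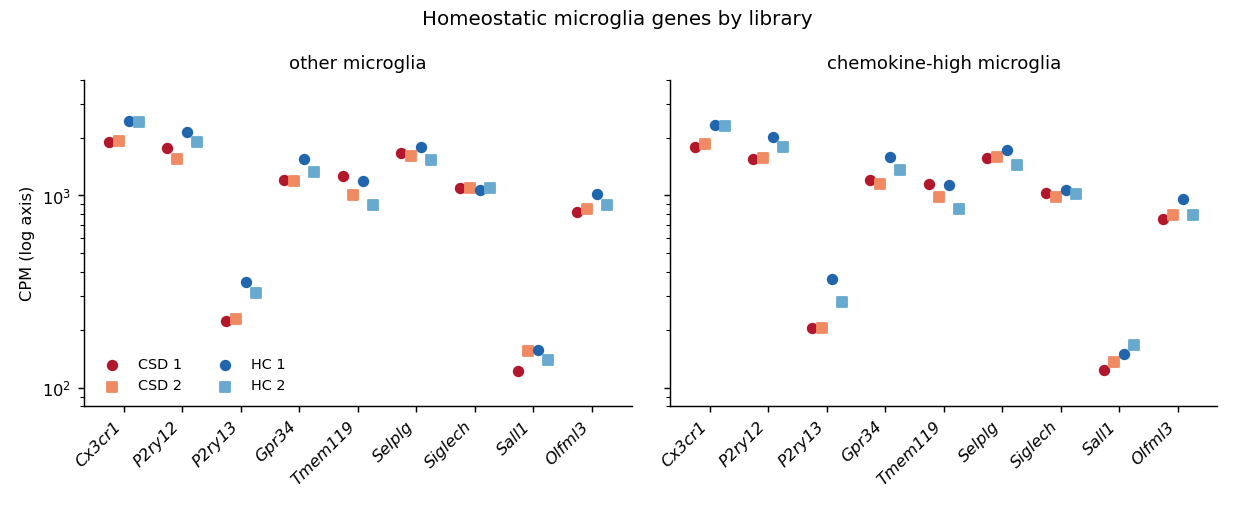
Level of each gene in CPM on a log axis in the other microglia (left) and chemokine-high microglia (right) of the 4 libraries, 1 point per library, CSD in red and HC in blue. For Cx3cr1, P2ry12, P2ry13 and Gpr34 both CSD points lie below both HC points in either panel, as they do for Olfml3 on the left and Sall1 on the right. For Siglech both CSD points lie just above both HC points on the left, while Selplg and Tmem119 overlap in either panel.

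The median log2 fold change of the 9 members was -0.15 in other microglia, -0.26 in chemokine-high microglia and -0.13 in all gated microglia, against 0.0042, 0.0019 and 0.00091 for all genes tested. In other microglia the members' median was -0.04 without CSD 1 and -0.25 without CSD 2, and -0.08 without HC 1. The median of all genes tested in these fits was -0.04, -0.02 and 0.02 in the same order. With every cell thinned to 500 UMIs, so that shallow and deep cells weighed the same, the members' median was -0.30 in other microglia. With only cells of 1000 UMIs or more it was -0.15 in other and -0.13 in all gated microglia. In chemokine-high microglia it was -0.13 without CSD 1 and -0.33 without CSD 2. In all gated microglia it was -0.02 without CSD 1, -0.28 without CSD 2, -0.29 after thinning and -0.24 with the gate of C1qa, C1qb and Ctss raised to 2%. Without CSD 1 the median of all genes tested was -0.04 in chemokine-high and in all gated microglia. No member passed the test under any of these settings. No member passed the test of a difference in the CSD effect between the classes (edgeR interaction test with the library as a block, 0 of 9, against 0.101% of 8885 genes, 0.0675% higher and 0.0338% lower, 396 genes and 0 members at an unadjusted p under 0.05, DESeq2 0 genes), and the member differences between classes ran from -0.21 (Sall1, 95% interval -0.53 to 0.12) to 0.0034 (Olfml3). The other lists gave no call between CSD and HC either: 0 of 16 other homeostatic microglia genes, with a median of 0.02 in other microglia, 0 of 12 regulators, 0 of 13 activation genes, 0 of 16 immediate-early and dissociation genes, 0 of the 9, 10 or 11 disease-associated genes tested in the respective fits and 0 of 4 tested ligands and partners. The share of microglia that were chemokine-high was 47.0% in CSD 1, 33.4% in CSD 2, 45.8% in HC 1 and 46.4% in HC 2, a difference of -5.88 percentage points (exact permutation test, two-sided, p = 1, smallest possible p 0.333). For the share of microglia that are chemokine-high, CSD against HC, the difference was 0.9154 points without CSD 2. In border macrophages CSD and HC could not be tested, since only CSD 1 had 10 or more cells in its condition, and the 9 members summed to 955 CPM there against 722 and 689 CPM in HC 1 and HC 2.

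Border macrophages, the macrophages of vessels, meninges and choroid plexus, were set against other microglia within libraries. All 9 members were lower in border macrophages, where 8.42% of the 7438 genes tested were lower (edgeR quasi-likelihood test with the library as a block, Benjamini-Hochberg adjusted p under 0.05, CSD 1, HC 1 and HC 2, since CSD 2 had 5 border macrophages and was left out). All 9 were lower in 3 of 3 libraries, as were 29.5% of all genes. Sall1, counted among the 9, had 0 UMIs in border macrophages and passed the count filter only through other microglia. The members' median log2 fold change was -3.78 with Sall1 at its bound, against -0.11 for all genes tested.

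Among the receptors, Cx3cr1 was at 57.6 CPM in the border macrophages of CSD 1, 110 in HC 1 and 201 in HC 2, against 1896, 2444 and 2422 CPM in the other microglia of these libraries. Its log2 fold change was -4.42 ± 0.28 (SE, adjusted p = 1.6e-51). P2ry12 stood at 253, 103 and 57.4 CPM against 1758, 2139 and 1887 CPM, a log2 fold change of -3.78 ± 0.27 (adjusted p = 1.02e-40). Neither gene came near its microglial level in any library. Gpr34 was at 138, 151 and 144 CPM and fell by 3.27 on the log2 scale (adjusted p = 1.12e-29). P2ry13 was at 69.1, 82.5 and 86.2 CPM, and its log2 fold change of -1.94 ± 0.34 was the smallest among the members (adjusted p = 3.17e-07).

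For the surface proteins, the log2 fold change was -4.65 ± 0.34 for Tmem119, -4.26 ± 0.30 for Selplg and -2.95 ± 0.28 for Siglech (adjusted p = 5.33e-39, 4.58e-44 and 1.25e-23). The secreted Olfml3 gave the largest fitted change of the members with a UMI, -4.86 ± 0.38 (adjusted p = 5.64e-36). It rested on 8 UMIs in border macrophages, at 46.0, 6.88 and 86.2 CPM in CSD 1, HC 1 and HC 2. Tmem119 had 12 UMIs there, and Selplg had 25, with 0 in HC 2. Sall1 had 0 UMIs in the border macrophages of all 4 libraries. With a floor of 3 counts over the 3 libraries of the fit, 11.2 CPM, it was at least 12.3-fold lower than in other microglia (137.7 CPM over the same libraries).

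The residual levels in border macrophages were set beside free RNA. Gpr34 and P2ry13 were above the free RNA of their own library in 3 of 3 libraries, with P2ry13 at 69.1 to 86.2 CPM against 19.9 to 21.7 CPM. Sall1 was above it in none, and the other 6 members in 1 or 2 libraries. At 500 UMIs per cell, border macrophages held 0.173 to 0.476 members on average in the 3 libraries, and 66.7 to 82.9% of the cells held none. The share of border macrophages that also passed the endothelial gate was 1.92 to 4.88% in these libraries, and the part of free RNA and mixed barcodes in the residual levels was not tested. With cells that passed another gate removed, the count of lower members remained 9 of 9, with Sall1 and its 0 UMIs among them.

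**Figure D3:**
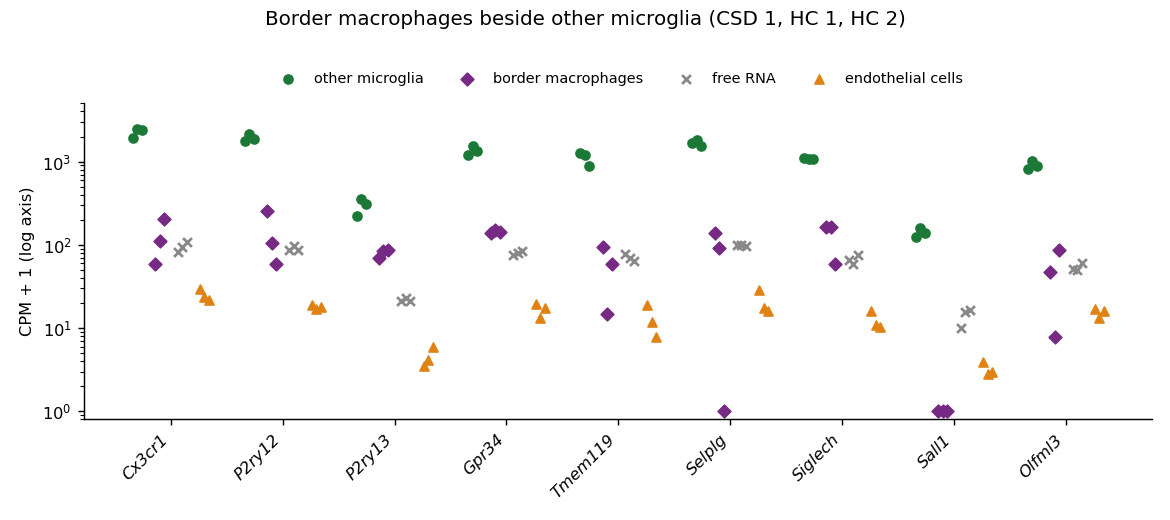
Level of each gene as CPM + 1 on a log axis in other microglia (circles), border macrophages (diamonds), free RNA (crosses) and endothelial cells (triangles) of CSD 1, HC 1 and HC 2, 1 point per library. Border macrophages sit far below other microglia for all 9 genes, with Sall1 at 0 CPM in each, and Gpr34 and P2ry13 lie above the free RNA of all 3 libraries.

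The genes around the members, from lists chosen with results of these data known, moved as follows. Of 16 other homeostatic microglia genes, 11 were lower in border macrophages and 0 higher, among them Sparc (-4.93 ± 0.29) and Crybb1 (-4.03 ± 0.42). The fructose transporter gene Slc2a5 had 2 UMIs there and was 26.6-fold lower (95% counting interval 7.37 to 219.98). Of 12 regulators of microglial identity, 8 were lower, among them Tgfbr1, a receptor of TGF-beta that maintains the programme (-3.31 ± 0.35), and Mef2a (-1.73 ± 0.26). The third regulator named by the rule, Smad3, had 0 UMIs there and was at least 1.92-fold lower. Smad3 is counted among the 8, though it passed the count filter only through other microglia. Of 8 tested disease-associated microglia genes, 5 were higher and 2 lower, where 6.74% of all genes tested were higher. The lipid carrier Apoe led the higher genes at 50775 CPM against 1118 CPM (log2 fold change 5.38 ± 0.21), followed by Axl and Lgals3 (3.08 and 2.46), and Cd9 and Ctsd were lower (-4.10 and -1.83). Activation genes divided, with 2 of 13 higher, the chemokines Ccl2 and Ccl12 (3.63 and 3.04), and 6 lower, among them Il1a and Ccrl2 (-3.99 and -2.32). Gpr84, also lower, had 1 UMI there and was 47.8-fold lower (95% counting interval 8.58 to 1887). Of 16 immediate-early and dissociation genes 3 were higher and 5 lower, with Hspa1a and Hspa1b, heat shock genes whose reads can be hard to tell apart, at 2.29 and 2.26 and Dusp1 at 0.60, and with Rgs1, Egr1 and Atf3 at -2.66, -1.14 and -0.88. Among the ligands and partners of the members, Entpd1, which degrades ATP and ADP, was lower (-0.98 ± 0.30), and the adenosine receptor gene Adora3 had 0 UMIs and was at least 4.48-fold lower. Without CSD 1 the calls of Smad3, Dusp1, Atf3 and Hspa1b were lost, and without HC 1 those of Smad3, Dusp1, Atf3, Entpd1, Adora3 and Axl.

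Within microglia, the chemokine-high cells were set against the other microglia of the same library. These cells hold Ccl3 and Ccl4, chemokines made on activation and also after tissue dissociation. 0 of 9 members passed the test, against 2.41% of the 8885 genes tested (214 genes, 154 higher and 60 lower, edgeR with the library as a block, n = 4 libraries). At an unadjusted p under 0.05 there was 1 member, Olfml3, and 1106 genes in all, and DESeq2 also called 0 members. The members' log2 fold changes ran from -0.13 to -0.0047 with a median of -0.09, against -0.0088 for all genes tested.

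Olfml3 was at 758 CPM in the chemokine-high microglia of CSD 1, 795 in CSD 2, 955 in HC 1 and 793 in HC 2, against 822, 849, 1014 and 897 CPM in other microglia. It was lower in 4 of 4 libraries, with a 95% interval of -0.23 to -0.03 (log2 fold change -0.13 ± 0.05, unadjusted p = 0.0144, adjusted p = 0.225). On TMM-scaled CPM, Cx3cr1, P2ry12, Tmem119, Selplg and Siglech were also lower in 4 of 4 libraries, as were 9.81% of all genes. On unscaled CPM, P2ry12 was slightly higher in the chemokine-high microglia of CSD 2 (1561 against 1550 CPM). For Cx3cr1 the log2 fold change was -0.08 ± 0.05, adjusted p = 0.541, and for Gpr34 -0.0047 ± 0.05, adjusted p = 0.986. Over the 9 members the 95% intervals lay within -0.23 and 0.15.

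The chemokine-high gate was then opened into 5 steps of Ccl3 and Ccl4 content. The sum of the 9 members was 10481 ± 1189 CPM in microglia with none of these UMIs, 10418 ± 909 CPM above 0 and under 0.3%, 10089 ± 1151 CPM from 0.3 to 1%, 9865 ± 742 CPM from 1 to 3% and 9119 ± 1499 CPM from 3% on (SD, n = 4 libraries). The last step held 54 cells, 5 in its smallest library. Within libraries the sum was lower at the third step than at the second in 4 of 4, and lower at the fourth than at the first in 3 of 4, CSD 2 being higher. With Ccl3 and Ccl4 left out of the total UMIs, the sum in HC 1 rose from the second step to the third (11767 to 11815 CPM). The median depth at the first step was 1426, 967, 940 and 1336.5 UMIs in CSD 1, CSD 2, HC 1 and HC 2. At the fourth step it was 1875.5, 4994, 2960.5 and 1759 UMIs. The part of depth in the steps was not tested. Siglech went from 1123 ± 31.8 CPM at the first step to 957 ± 77.7 CPM at the fourth, and each library was lower at the fourth step than at the first. Olfml3 went from 959.1 ± 93.5 to 823 ± 96.6 CPM between the same steps, lower in 4 of 4 libraries. Gpr34, at 1266 ± 191 and 1367 ± 204 CPM, was higher at the fourth step in 4 of 4 libraries, though barely in CSD 1 (1140 against 1136 CPM). Sall1, at 148 ± 22.5 and 145 ± 25.8 CPM, was higher in 3 of 4 and lower in HC 1. These steps are a description with no test, and the share of all genes that moved the same way in every library was not computed.

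**Figure D4:**
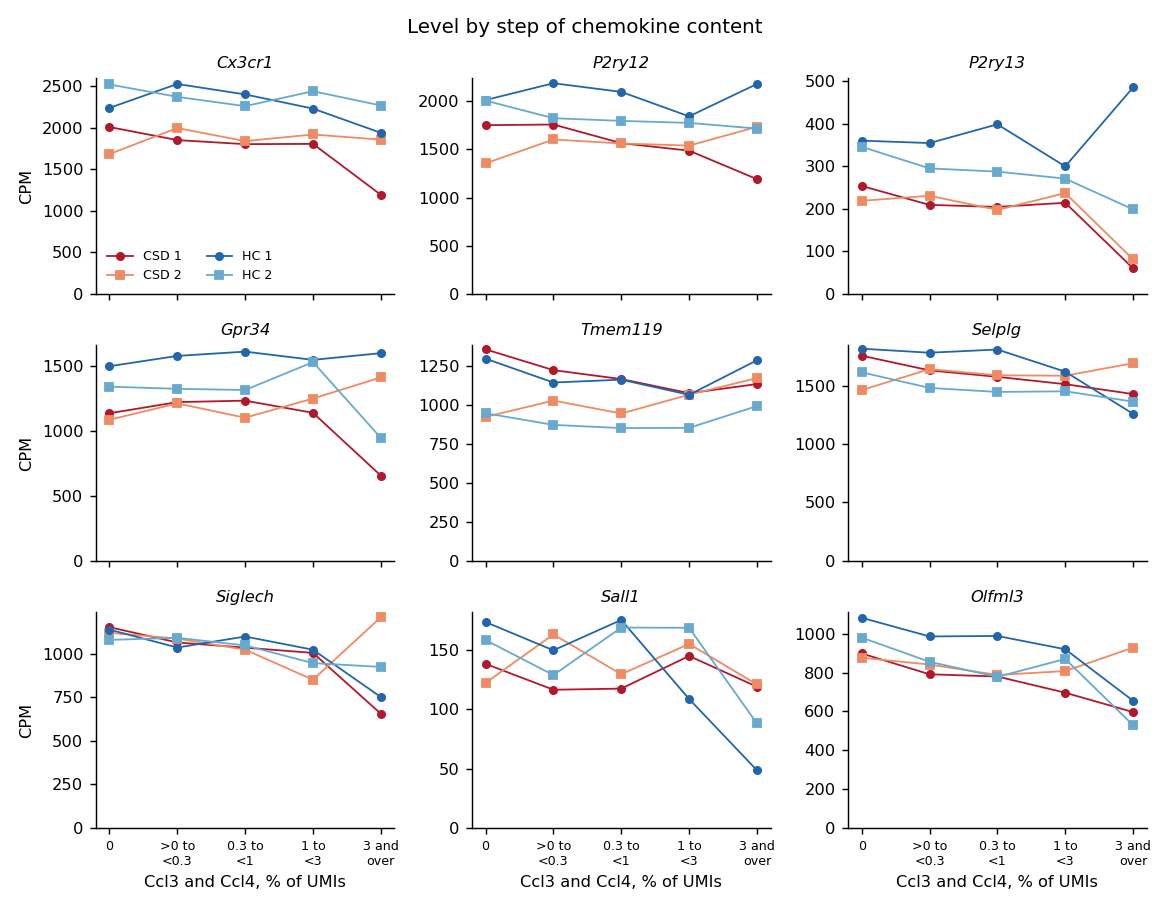
Level of each gene in CPM (linear axes from 0) over 5 steps of Ccl3 and Ccl4 content in percent of UMIs, 1 line per library. The lines are nearly level up to 3%, slope down for Siglech and Olfml3, and scatter at the last step, which holds 54 cells.

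The lists around the members did move with the gate. Of 13 activation genes, 12 were higher in chemokine-high microglia, where 1.73% of all genes tested were higher. They were led by the chemokine Ccl2 (log2 fold change 0.99 ± 0.07) and the cytokines Il1b (0.87 ± 0.15) and Tnf (0.68 ± 0.06). The list holds Il1a, Nfkbia, Gpr84 and a Gadd45 gene, which the paper names beside Ccl3 and Ccl4 as marking microglia clusters of these same cells. A rise of this list with the gate was therefore partly set in advance. Of 10 tested disease-associated genes, 5 were higher, led by the lipase gene Lpl (1.41 ± 0.27), Csf1 (0.79 ± 0.17) and Cd63 (0.27 ± 0.06). Of 16 other homeostatic microglia genes, 2 were lower, Crybb1 (-0.23 ± 0.06) and Sparc (-0.17 ± 0.05), and of 12 regulators 1 was higher, Runx1 (0.37 ± 0.06). Of the immediate-early and dissociation genes, Atf3 (0.43) and Rgs1 (0.29) were higher and Fosb (-0.27), a gene of the other gate, was lower, and 0 of 4 tested ligands and partners passed. The calls of Crybb1, Sparc, Cd63 and Csf1 were lost without CSD 1, those of Crybb1 and Sparc also without CSD 2, and that of Sparc without HC 1.

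**Figure D5:**
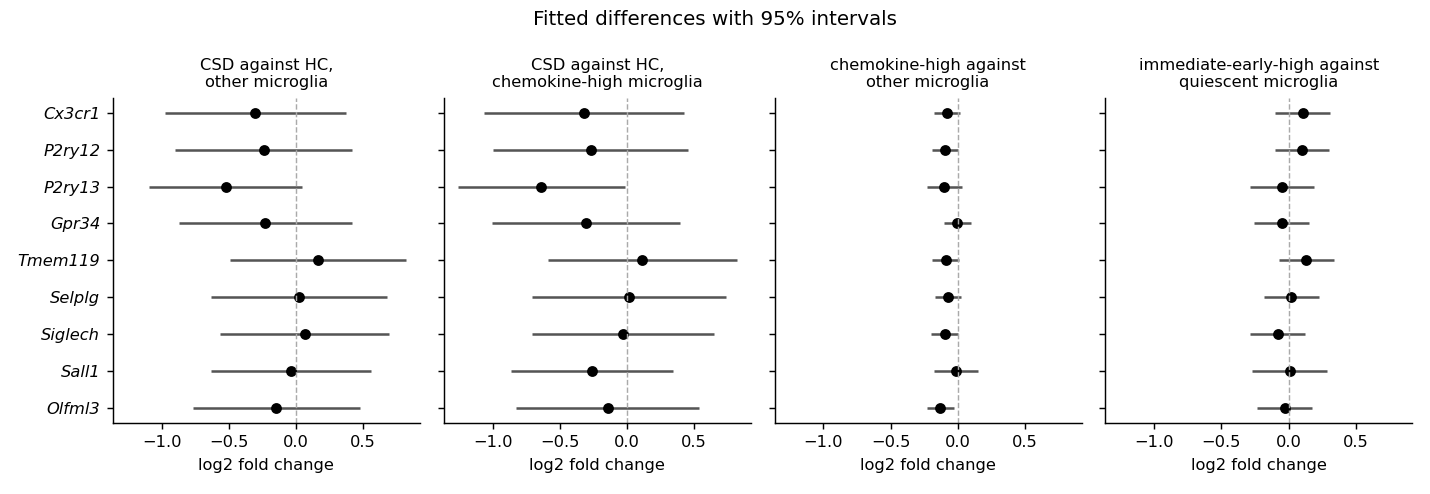
Log2 fold change of each gene (points) with its 95% interval (lines) in 4 comparisons, with a dashed line at 0. The intervals between CSD and HC (2 against 2 libraries) are wide, those between classes of the same 4 libraries are narrow, and of the intervals shown only those of P2ry13 for CSD in chemokine-high microglia and of Olfml3 for chemokine-high against other microglia leave out 0, with no adjusted p under 0.05.

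Cells high in immediate-early genes were set against quiescent microglia of the same library. Immediate-early genes rise within minutes of stimulation and during dissociation. 0 of 9 members passed the test, against 11.5% of the 7230 genes tested (5.67% higher and 5.78% lower, edgeR with the library as a block, n = 4 libraries). No member reached an unadjusted p under 0.05, where 1613 genes did, and DESeq2 called 0 members. The members' log2 fold changes ran from -0.08 (Siglech) to 0.13 (Tmem119), with a median of 0.0090 and intervals within -0.29 and 0.33.

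Cx3cr1 was at 1888 CPM in the immediate-early-high microglia of CSD 1, 2069 in CSD 2, 2517 in HC 1 and 2503 in HC 2, against 1925, 1484, 2231 and 2221 CPM in quiescent microglia. It was higher in 3 of 4 libraries, with the widest gap in CSD 2 (log2 fold change 0.10 ± 0.10, adjusted p = 0.620). With each cell thinned to 500 UMIs, Cx3cr1 was the 1 member that passed, at 0.46 ± 0.19 (adjusted p = 0.0479 by edgeR), where 15.2% of the 2290 genes tested were higher and 14.9% lower. In cells of 1000 UMIs or more Cx3cr1 changed sign and was not called, and the members' median was -0.03. On TMM-scaled CPM, P2ry12 and Tmem119 were higher in 4 of 4 libraries, and Siglech was lower in 4 of 4, as were 13.4% of all genes. The share of all genes higher in every library was not computed. On unscaled CPM, Siglech was higher in immediate-early-high microglia in CSD 2 (1123 against 1009 CPM) and HC 1 (1084.5 against 1013.2 CPM). The quiescent cells of CSD 2 and HC 1 were shallow, with a median of 435 and 426 genes and 9.70 and 9.16% mt- UMIs, against 702 and 831 genes and 6.68 and 4.96% in CSD 1 and HC 2.

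Depth moved with the members' level in these 2 libraries. Over other microglia of 500 to 1000 UMIs, the sum of the 9 members was 5048 CPM in CSD 2 (112 cells) and 8073 CPM in HC 1 (132 cells), against 10817 and 12637 CPM in cells of 2000 to 4000 UMIs. In CSD 1 and HC 2 it was 9211 and 10475 CPM in the shallow cells and 9717 and 9790 CPM in the deeper ones. The part of cell quality in the levels of quiescent microglia was not tested.

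The lists moved strongly with this gate, part of which they share. Of 16 immediate-early and dissociation genes, which include 6 genes of the gate, 15 were higher, where 5.67% of all genes tested were higher. They were led by Fos (2.20), Fosb (2.06) and Egr1 (2.04), which are genes of the gate, so their rise was set in advance. Of 13 activation genes 10 were higher, led by the I-kappaB family genes Nfkbiz (1.15 ± 0.12) and Nfkbia (1.06 ± 0.11) and by Gadd45b (0.997 ± 0.11). Of 16 other homeostatic microglia genes, 2 were lower, the adaptor Tyrobp (-0.52 ± 0.10), which is also on the list of partners (1 of 4 tested lower), and Cst3 (-0.46 ± 0.12). Of 12 regulators 2 were higher, Tgfb1 (0.44 ± 0.13) and Mef2a (0.37 ± 0.11). Of 7 tested disease-associated genes 2 were lower, Apoe (-1.26 ± 0.11) and Cd63 (-0.63 ± 0.11). The calls of Cst3, Mef2a and Tgfb1 were lost without CSD 1, those of Cst3 and Mef2a without CSD 2, those of Mef2a and Tgfb1 without HC 1, and that of Tgfb1 without HC 2.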

How the data were processed

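Count matrices of UMIs per gene and barcode were used as deposited. Per the labels and file headers, the authors made these counts with Cell Ranger (4.0 in the processing notes, 3.1.0 in the matrix headers) on GRCm38/mm10, with no normalization. Cells had at least 500 UMIs, at least 250 genes and at most 25% mt- UMIs, and were placed in classes by summed marker genes as a percent of UMIs. The border macrophage gate required 0.4% and 3 UMIs over 2 of its genes. Doublets were not called, and cells passing another gate were left out as an alternative. Cells are not replicates: counts were summed per library and class (at least 10 cells) and tested with edgeR 4.0.16 (R 4.3.3, limma 3.58.1; filterByExpr, TMM, quasi-likelihood test, two-sided, Benjamini-Hochberg over all genes of a fit, threshold 0.05), with the library as a block between classes. The study's Wilcoxon test over cells was not repeated. The scripts were tested on simulated counts. Alternatives were DESeq2 1.42.0, its size factors, no filter on low counts, 1000 UMIs per cell, a complexity of 0.8, cells thinned to 500 UMIs, other gates, gate genes left out, the replicate block and each library left out, the last for the chemokine-high share, and unscaled CPM for group overlap, chosen after seeing the data. The share was compared with an exact permutation test.

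The members and the gene lists were chosen with earlier results of these data known. All 9 members are named in each comparison, and of each other list up to 3 genes per direction with the largest log2 fold change past the threshold. The genes most like the members were the 5 with the highest Pearson r among those with a mean of 50 CPM or more in other microglia, gate genes left out. Of these, 1 is not reported here. Intervals are 95%, and a level at 0 was bounded at 3 counts over the libraries of the fit.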

Additional observations from a re-analysis of the deposited data

Results flagged for a closer look

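The test of a difference in the CSD effect between chemokine-high and other microglia singled out 1 of the genes on the lists, Il1b, which encodes the cytokine interleukin-1 beta. The difference was -1.05 ± 0.23 on the log2 scale (-1.04592 before rounding, adjusted p = 0.00918 by edgeR). Il1b was at 74.2 CPM in CSD 1, 76.4 in CSD 2, 97.0 in HC 1 and 143 in HC 2 in chemokine-high microglia, and at 31.2, 86.6, 46.2 and 42.9 CPM in other microglia. CSD 2 was the library in which Il1b was higher in other than in chemokine-high microglia. Without CSD 2 the difference was -0.19 (adjusted p = 0.9998 by edgeR), without HC 1 it was -1.38 (adjusted p = 0.977) and without HC 2 it was -0.69 (adjusted p = 0.901). It passed without CSD 1, at -1.65 (adjusted p = 3.79e-06), and not in DESeq2, at -0.90 (adjusted p = 0.9999), or without cells passing another gate, at -1.05 (adjusted p = 0.376). The part of CSD 2 in this result was not tested further.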

How the results depend on the processing

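The 9 members were lower in border macrophages under each alternative run, and no member was called in any CSD comparison, in the interaction or between chemokine-high and other microglia under any alternative. Between immediate-early-high and quiescent microglia, 1 member (Cx3cr1) was called after thinning to 500 UMIs, where 15.2% of the genes tested were higher and 14.9% lower. The counts of all genes called moved more: from 214 to between 2 and 288 for chemokine-high against other microglia, from 828 to between 32 and 1197 for immediate-early-high against quiescent microglia, from 1127 to between 341 and 1319 for border macrophages, from 9 to between 0 and 9 for the interaction, and from 0 to up to 11, 56 and 39 between CSD and HC in chemokine-high, other and all gated microglia. Replicate numbers mark nothing shared in the labels. Same-numbered libraries deviated together (r = 0.62, 0.56 and 0.67 in chemokine-high, other and all gated microglia), but with 2 pairs this does not show pairing. With the replicate block, 5, 37 and 39 genes and 0 members were called. Among other named genes, 84 values in alternatives lost the call, 592 kept it and 1 changed sign.

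Members changed sign in some alternatives, and not only where the main log2 fold change was near 0. In the main fits, Sall1 stood at -0.21 in the interaction and at -0.26 between CSD and HC in chemokine-high microglia. P2ry13 stood at -0.11 in the interaction. The members that changed sign follow, none of them called. With cells thinned to 500 UMIs these were Selplg between CSD and HC in other (-0.0936) and all gated microglia (-0.0042), Cx3cr1, P2ry13 and Sall1 in chemokine-high against other microglia (0.0139, 0.0567 and 0.0821), Gpr34 in immediate-early-high microglia (0.0018), and Cx3cr1, P2ry13, Selplg, Sall1 and Olfml3 in the interaction (0.0641, 0.1892, 0.1825, 0.4557 and -0.0685). With no filter on low counts they were Siglech between CSD and HC in chemokine-high microglia (0.0050), P2ry13, Gpr34, Siglech and Olfml3 in immediate-early-high microglia (0.0420, 0.0418, 0.0106 and 0.0620) and Olfml3 in the interaction (-0.0164). In cells of 1000 UMIs or more, Cx3cr1, Selplg, Sall1 and Olfml3 changed sign in immediate-early-high microglia (-0.0165, -0.0296, -0.0309 and 0.0022), and Sall1 did so with DESeq2 (-0.0148), its size factors (-0.0116) and without cells passing another gate (-0.0345), where Selplg did in the interaction (0.0015). Other gates changed Sall1 between CSD and HC in chemokine-high microglia (Ccl3 and Ccl4 at 1%, 0.1451), Selplg and Siglech between CSD and HC in all gated microglia (C1qa, C1qb and Ctss at 2%, -0.0366 and -0.0393), Gpr34 in chemokine-high against other microglia (0.0358 and 0.0027 with Ccl3 and Ccl4 at 0.1 and 1%, 0.0076 with the 2% gate, where Sall1 was at 0.0726), P2ry13 and Gpr34 with immediate-early genes at 0.5% (0.0196 and 0.0136), and P2ry13, Olfml3 and the activation gene Gadd45b at 2% (0.0965, 0.0230 and -0.0435). The cause was not tested.

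Leaving out 1 library at a time gave ranges across 0 between CSD and HC in chemokine-high microglia for Tmem119 (-0.0108 to 0.2835), Selplg (-0.0662 to 0.1050) and Siglech (-0.0652 to 0.0149), in other microglia for Selplg (-0.0405 to 0.1231), Siglech (-0.0181 to 0.1517) and Sall1 (-0.3006 to 0.1924), and in all gated microglia for Selplg (-0.0398 to 0.1287), Siglech (-0.0357 to 0.1078) and Sall1 (-0.3392 to 0.0636). It did so for Gpr34 (-0.0215 to 0.0194) and Sall1 (-0.1018 to 0.0622) in chemokine-high against other microglia, and for P2ry13 (-0.1539 to 0.0165), Gpr34 (-0.1114 to 0.0051), Selplg (-0.0254 to 0.0533) and Sall1 (-0.0705 to 0.0707) in immediate-early-high microglia. In the interaction the ranges were -0.1170 to 0.05 for P2ry12, -0.0412 to 0.0139 for Selplg and -0.0307 to 0.0332 for Olfml3, and for the share of microglia that are chemokine-high, CSD against HC, the difference ran from -12.6769 to 0.9154 percentage points.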
